A study of Mus musculus with 30 samples.

Results

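Hox genes encode homeodomain transcription factors that give cells of the embryo their position along the body axis. In mammals they lie in the HoxA, HoxB, HoxC and HoxD clusters, and the genes of a cluster are switched on in the trunk, limbs, hindbrain and spinal cord in the order in which they lie on the chromosome. The retina forms from the forebrain, in front of the territory in which Hox genes are active, and there the clusters are held silent. Hox genes are the classic targets of Polycomb repression: Polycomb repressive complex 2, with Ezh2 as its usual catalytic subunit, Eed and Suz12, methylates a lysine of the histone H3 tail over the clusters, and Trithorax proteins such as Kmt2a and its partner Men1 oppose it. The genes described here are all gene symbols of the deposited tables made of Hoxa, Hoxb, Hoxc or Hoxd and a number, chosen by name alone and with no minimum count. There were 38 of them among 38720 genes, with 11 in HoxA on chromosome 6, 10 in HoxB on chromosome 11, 9 in HoxC on chromosome 15 and 8 in HoxD on chromosome 2. The RefSeq annotation of the mouse lists 39, and 1 of these was not analysed here.

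Poly(A) RNA was sequenced from retinas of newborn mice (postnatal day 0) after digestion with papain, and anti-CD90 beads, which bind the product of Thy1, split the cells into retinal ganglion cells (RGC) and the remaining cells (non-RGC). The 3 groups compared, with 3 libraries each, were mutant non-RGC cells, mutant RGCs and wild type (WT) RGCs of C57BL/6 mice. The mutants of the series carry Math5Cre, in which Cre follows Math5 (Atoh7), a gene of the progenitors that give rise to ganglion cells. They are Ezh2f/f, alone (sKO) or together with a single floxed allele of Ehmt2, which encodes G9a (dKO, Ezh2f/fG9af/+), and the tables do not say which of these genotypes is their mutant. Both RGC groups and the non-RGC group are bulk fractions, in which cells outside the Math5 lineage can keep an intact Ezh2. WT non-RGC cells, the other mutant genotype and the 12 chromatin samples of the series were not analysed here. The labels tie no library to an animal of its own, and the p-values below then reflect library spread that may be technical.

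The deposited tables give means of normalised counts per group, from which the whole reads of each gene in each library were recovered; libraries are numbered within a group by falling size factor and match no sample number. The libraries held 10559040 to 12269290 assigned reads and 19865 to 21661 genes with a read. All 6 retinal markers, among them Rax, Six3 and Pax6, had reads in every library, and their summed normalised count was 17004 to 17658 in mutant non-RGC, 15198 to 16147 in mutant RGC and 12558 to 15514 in WT RGC libraries. The summed level of 8 ganglion cell markers was 1908 to 5960, 9593 to 16152 and 20905 to 23997 in the same order of groups, and that of 6 markers of dividing cells was 19655 to 20853, 16404 to 17433 and 7163 to 12346. The RGC groups thus differed in these markers, and in bulk fractions fewer cells of a type and less RNA per cell cannot be told apart. Ezh2 itself had 2233, 2159 and 2330.5 normalised counts in mutant non-RGC, 1962, 1863 and 1811 in mutant RGC and 1154, 1169 and 1576 in WT RGC libraries. It was therefore higher, not lower, in mutant than in WT RGCs (log2 difference 0.58, SE 0.13, limma adjusted p = 0.0324), a call that was lost on leaving out any 1 of the mutant RGC libraries or WT RGC library 1 or 2 (adjusted p = 0.0815 to 0.164). A floxed allele loses only the exons between its sites, which the sources used here do not name, so counts over the whole gene do not test the deletion. The group is called mutant as its label has it, and each direction given below rests on that label.

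The promoters show what kind of sequence lies at these genes. Polycomb complexes in mammals are found mostly at stretches rich in CG dinucleotides, and the 250 bases before an annotated transcript start are given for the 3 members whose reads the results turn on (Hoxd8, Hoxb8 and Hoxa7) and for 2 members with no read in any library (Hoxa13 and Hoxd12). All are RefSeq sequences of assembly GRCm38.p6, 5′ to 3′ on the strand of the gene, with every CG in capitals.
Hoxd8 (chr2:74704365-74704614, plus strand): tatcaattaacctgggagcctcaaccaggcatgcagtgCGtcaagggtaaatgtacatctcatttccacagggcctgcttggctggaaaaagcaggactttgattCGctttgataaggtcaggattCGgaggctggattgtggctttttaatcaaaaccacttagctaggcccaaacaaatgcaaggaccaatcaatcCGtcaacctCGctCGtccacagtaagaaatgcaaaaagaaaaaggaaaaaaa
Hoxb8 (chr11:96281655-96281904, plus strand): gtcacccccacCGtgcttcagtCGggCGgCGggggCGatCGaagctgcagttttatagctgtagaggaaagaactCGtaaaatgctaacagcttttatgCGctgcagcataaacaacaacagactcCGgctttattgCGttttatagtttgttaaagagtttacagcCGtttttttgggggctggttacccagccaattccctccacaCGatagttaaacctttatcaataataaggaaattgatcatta
Hoxa7 (chr6:52218574-52218823, minus strand): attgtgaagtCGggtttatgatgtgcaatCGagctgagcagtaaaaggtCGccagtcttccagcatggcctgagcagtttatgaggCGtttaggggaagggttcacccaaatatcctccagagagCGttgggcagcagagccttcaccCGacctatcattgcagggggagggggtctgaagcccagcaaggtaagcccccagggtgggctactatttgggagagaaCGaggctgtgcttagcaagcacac
Hoxa13 (chr6:52260881-52261130, minus strand): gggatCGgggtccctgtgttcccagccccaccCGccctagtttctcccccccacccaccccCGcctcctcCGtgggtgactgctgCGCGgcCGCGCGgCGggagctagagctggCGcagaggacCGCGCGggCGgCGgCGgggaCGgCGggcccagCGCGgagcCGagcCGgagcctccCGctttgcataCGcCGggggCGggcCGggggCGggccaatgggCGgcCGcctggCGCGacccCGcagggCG
Hoxd12 (chr2:74674763-74675012, plus strand): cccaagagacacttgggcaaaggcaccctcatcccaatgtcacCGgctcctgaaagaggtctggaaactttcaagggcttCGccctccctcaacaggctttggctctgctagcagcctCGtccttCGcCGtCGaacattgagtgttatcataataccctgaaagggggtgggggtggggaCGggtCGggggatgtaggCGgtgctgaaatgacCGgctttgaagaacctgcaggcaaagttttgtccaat

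CG dinucleotides numbered 6 in the Hoxd8 window, 12 in that of Hoxb8 and 7 in that of Hoxa7, against 35 in that of the silent Hoxa13 and 10 in that of the silent Hoxd12. RefSeq windows were at hand for 21 of the 38 members, 23 windows in all since Hoxa10 and Hoxd11 have 2 starts each. The printed Hoxb8 window lies inside the annotated span of its gene, before a start that is not the outermost. The same holds for the windows of Hoxd10 and Hoxc4 and for 1 window each of Hoxa10 and Hoxd11. The median of the 23 Hox windows was 13 CG dinucleotides, against 6 over all 32851 windows of the mouse. The latter belong to 27025 genes and were not limited to protein-coding genes, as the Hox genes are, so the sets are unlike. The observed over expected CG ratio, which corrects for base composition, had a median of 0.755 in Hox windows against 0.373 in all windows. A ratio of at least 0.6 with at least 50% G and C was reached by 11 of the 23 Hox windows (47.8%), against 31.0% of all windows. It was reached by 5 of the 9 windows of members with no read and by 6 of the 14 windows of members with reads, so CG-rich and CG-poor windows occurred on both sides. The letters TATAAA, on either strand, were in 3 Hox windows (13.04%), those of Hoxb8, Hoxd13 and 1 start of Hoxa10, against 12.4% of all windows.

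**Figure D1:**
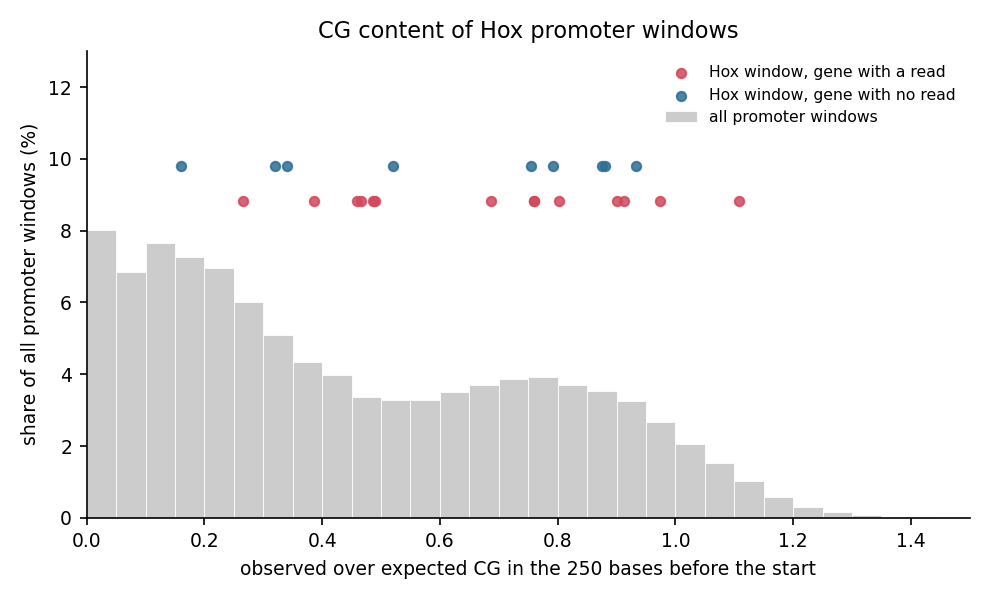
The x axis gives the observed over expected CG ratio of the 250 bases before the annotated start and the y axis the share of all 32851 mouse promoter windows in percent (grey bars). Points mark the Hox windows of members with a read (lower row) and with no read (upper row); both rows spread from CG-poor to CG-rich, with an overall range of 0.160 to 1.11.

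The Hox genes were nearly silent in all 3 groups. Over the 9 libraries they held 83 reads among 103219377 assigned reads, which is 0.804 RPM (reads per 1e+06 assigned reads; exact Poisson 95% interval 0.640 to 0.997). Of the 342 combinations of a member and a library, 283 (82.7%) held no read, 43 held 1 read, 12 held 2 reads, and the other 4 held 3, 3, 4 and 6 reads. The median member had 1 read in the 9 libraries together, against 1719 reads for the 19591 protein-coding symbols of the tables. All members lay at or under 17 reads, a range that held 25.8% of the protein-coding symbols. No read was assigned to 15 members (39.5%), against 15.9% of the protein-coding symbols. For a count of 0 a limit of 3 reads was used, which is 0.0291 RPM over the 9 libraries. Within a group of 3 libraries it is 0.0912 in mutant non-RGC, 0.0836 in mutant RGC and 0.0871 in WT RGC libraries. This is an approximate one-sided 95% limit, lower than the upper end of a two-sided exact interval. These intervals and limits cover counting error only. Reads are not corrected for transcript length, so they order no gene above another in level.

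The silent members were Hoxa4, Hoxa6, Hoxa11, Hoxa13, Hoxb1, Hoxb3, Hoxb5, Hoxc4, Hoxc5, Hoxc8, Hoxc11, Hoxc12, Hoxd10, Hoxd11 and Hoxd12. They came from all 4 clusters and from the hindbrain end (Hoxb1, which specifies a hindbrain segment) to the limb and tail end (Hoxa13, which is needed for digits and the urogenital tract). Of the 23 members with reads, 5 had them in all 3 groups (Hoxb8, Hoxb9, Hoxc9, Hoxd8 and Hoxd9), 9 in 2 groups and 9 in 1 group. Reads fell on 17 members in mutant non-RGC, 12 in mutant RGC and 13 in WT RGC libraries. With at least 3 reads over a group's libraries asked for, the numbers were 3, 1 and 3. An assigned read can be lost or shifted where genes overlap, and the counting rule for such reads was not found in the labels: 19 members overlap another RefSeq gene, and these include 9 of the 15 silent members. The other 19 overlap none and held 46 of the 83 reads, with 6 silent. Members that overlap another gene held 37 reads, of which 17 fell on Hoxd8, the member with the most reads, which overlaps Gm38462. Hoxb4, with 5 reads, overlaps Hoxb3. Whether overlap altered these counts was not tested.

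**Figure D2:**
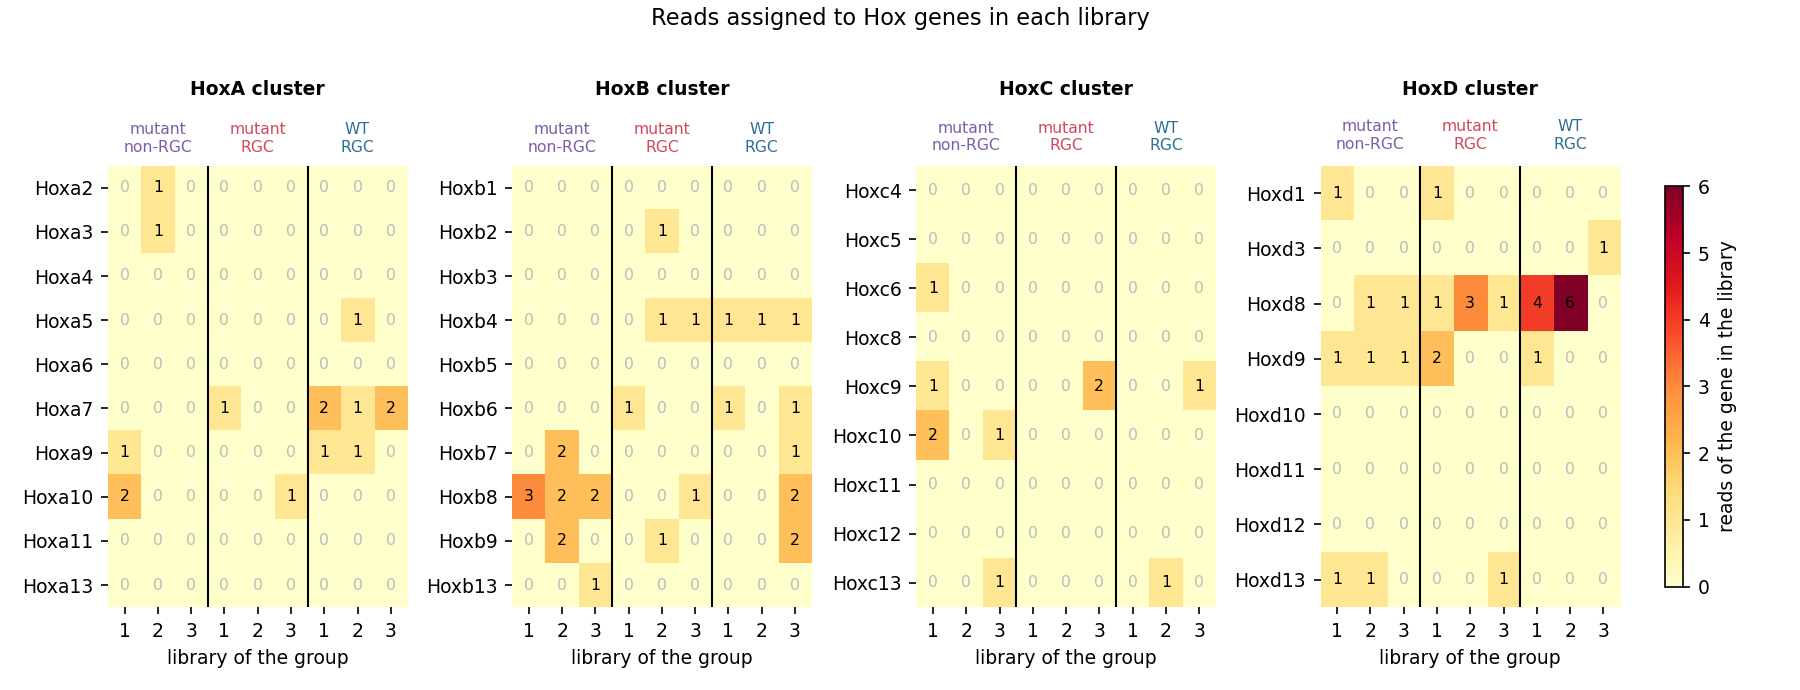
Each panel is a cluster, the rows are 37 Hox genes in order of their numbers, and each column a library of mutant non-RGC, mutant RGC or WT RGC cells; the number and colour give the reads assigned to that gene in that library. Most fields are 0, the highest are 6 and 4 reads of Hoxd8 in WT RGC libraries, and 15 rows hold no read.

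The members with 5 or more reads in all belong to the middle and lower trunk part of the clusters, apart from Hoxb4. Hoxd8, a gene of trunk patterning (chromosome 2, 74704615 to 74707933), had 0, 1 and 1 reads in mutant non-RGC, 1, 3 and 1 in mutant RGC and 4, 6 and 0 in WT RGC libraries. Its 10 WT reads came from 2 of 3 libraries, so the WT range took in the whole range of both mutant groups. Hoxb8, a trunk gene that in mice also marks the lineage of a subset of microglia (chromosome 11, 96279401 to 96285325), had 3, 2 and 2 reads in mutant non-RGC, 0, 0 and 1 in mutant RGC and 0, 0 and 2 in WT RGC libraries. Every mutant non-RGC library was above every mutant RGC library, while the RGC groups overlapped.

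Hoxa7, which helps to pattern the vertebrae of the trunk (chromosome 6, 52215623 to 52218573), had 0, 0 and 0 reads in mutant non-RGC, 1, 0 and 0 in mutant RGC and 2, 1 and 2 in WT RGC libraries. Counts of 1 in the highest mutant RGC library and in the lowest WT RGC library were equal before scaling and apart by their size factors only. Hoxd9, a gene of the lower trunk and hindlimb (chromosome 2, 74697763 to 74700208), had 1, 1 and 1 reads in mutant non-RGC, 2, 0 and 0 in mutant RGC and 1, 0 and 0 in WT RGC libraries. The 3 groups overlapped for Hoxd9.

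Hoxb9, which acts in rib patterning and lies next to Hoxb8 (chromosome 11, 96271330 to 96276595), had 0, 2 and 0 reads in mutant non-RGC, 0, 1 and 0 in mutant RGC and 0, 0 and 2 in WT RGC libraries. Each group's reads of Hoxb9 thus came from a single library. Hoxb4, known for patterning of the neck vertebrae and for its effect on blood stem cells (chromosome 11, 96318267 to 96321638), had 0, 0 and 0 reads in mutant non-RGC, 0, 1 and 1 in mutant RGC and 1, 1 and 1 in WT RGC libraries. It was the single member with a read in all 3 WT RGC libraries besides Hoxa7, and no library held more than 1 read of it.

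The remaining 17 members with reads held 4 reads or fewer. Hoxc9, a gene of thoracic motor neurons, had 4 reads, with 1 in mutant non-RGC, 2 in mutant RGC and 1 in WT RGC libraries. Totals of 3 reads each fell on Hoxd13 and Hoxa10 (2 in mutant non-RGC and 1 in mutant RGC libraries), Hoxa9 (1 in mutant non-RGC and 2 in WT RGC libraries), Hoxb7 (2 in mutant non-RGC and 1 in WT RGC libraries), Hoxb6 (1 in mutant RGC and 2 in WT RGC libraries) and Hoxc10 (3 in mutant non-RGC libraries). Hoxd1, which in mice acts in pain-sensing neurons, had 1 read each in a mutant non-RGC and a mutant RGC library, and Hoxc13, a hair and nail gene, 1 read each in a mutant non-RGC and a WT RGC library. A single read was found for the hindbrain and pharyngeal arch genes Hoxa2 and Hoxa3, both in mutant non-RGC library 2. Single reads also fell on Hoxb13 and Hoxc6 in mutant non-RGC, on Hoxb2 in mutant RGC and on Hoxa5 and Hoxd3 in WT RGC libraries.

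Between genotypes, the Hox genes together held 6, 6 and 7 reads in mutant RGC libraries, against 10, 11 and 11 reads in WT RGC libraries. No mutant RGC library reached the level of a WT RGC library. In RPM this was 0.530 ± 0.0622 in mutant RGC and 0.935 ± 0.114 in WT RGC libraries (SD, n = 3 each), and the sum of the members' normalised counts averaged 6.08 ± 0.775 in mutant RGC and 11.1 ± 1.17 in WT RGC libraries. Group totals of 19 and 32 reads gave a ratio of 0.569 for mutant over WT, with an exact 95% interval for counting error of 0.305 to 1.04 that includes equal levels. Members with numbers 5 to 8 held 8 of the mutant and 21 of the WT reads (ratio 0.365, interval 0.140 to 0.859). Members with numbers 1 to 4 held 4 and 4 reads, and members with numbers 9 to 13 held 7 and 7 reads. Among members with numbers 5 to 8, Hoxd8 and Hoxa7 made up 6 of the 8 mutant reads and 15 of the 21 WT reads. Other splits of the members were also made, and the interval for numbers 5 to 8 is not adjusted for them. As the interval of the total includes equal levels, these values do not place a difference in any part of the clusters. Without Hoxd8, the totals of all members were 14 and 22 reads (ratio 0.610, interval 0.289 to 1.25).

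No single Hox gene passed the test between genotypes. A read in at least 1 of the 6 libraries made 17 members testable, and limma called 0 of them at an adjusted p under 0.05, with 1 at an unadjusted p under 0.05. Voom weights on the recovered reads also gave 0 calls and 1 such gene, and the authors' deposited table gave 0 calls with a lowest adjusted p of 0.986, where 11.9% of its genes with a p were called. Of all 25333 genes tested, limma called 12.2%. Among the 7352 tested genes whose mean was no higher than that of the highest Hox gene it called 0.843%, so at this depth a share of 0 of 17 lies near the background of genes with so few reads.

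Hoxa7 had the lowest p of the members, with a log2 difference of -1.11 (SE 0.42, limma adjusted p = 0.119) on the log2(value + 1) scale, which shrinks differences of low genes, and its 1 mutant against 5 WT reads gave a ratio of 0.192 (interval 0.00406 to 1.71). It was the single tested member whose groups did not overlap, and 34.7% of all genes tested had groups that did not overlap. Hoxd8 differed by -0.42 (SE 0.76, adjusted p = 0.746), and its 5 mutant and 10 WT reads gave a ratio of 0.480 (interval 0.129 to 1.54). Without WT library 3, the library with 0 reads of it, the log2 difference of Hoxd8 was -1.27. Hoxb4, Hoxb8, Hoxb9 and Hoxd9 had log2 differences of -0.37, -0.22, -0.23 and 0.17, with limma adjusted p-values of 0.586, 0.824, 0.815 and 0.860.

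**Figure D3:**
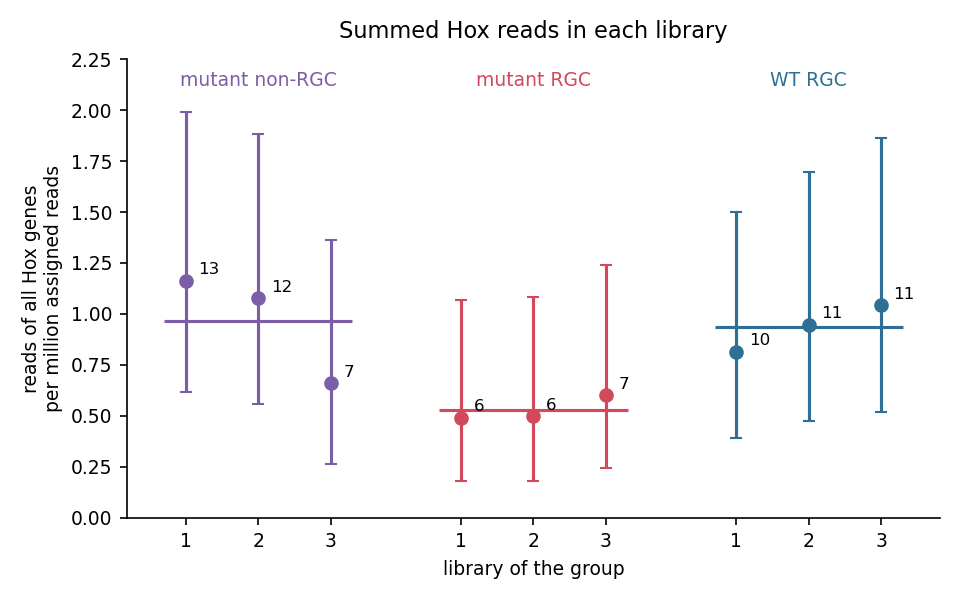
Points give the reads of all Hox genes in RPM in each library of the 3 groups, with the read number beside them; vertical bars are exact Poisson 95% intervals and horizontal lines group means. Mutant RGC libraries lie at 0.492 to 0.602, below the means of mutant non-RGC (0.968) and WT RGC libraries (0.935), while the intervals of all libraries overlap.

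Between fractions of the mutant retina, the Hox genes together held 13, 12 and 7 reads in mutant non-RGC libraries, against 6, 6 and 7 reads in mutant RGC libraries. The lowest non-RGC library equalled the highest RGC library in reads. In RPM, non-RGC libraries averaged 0.968 ± 0.269 and RGC libraries 0.530 ± 0.0622 (SD, n = 3 each). The group totals of 32 and 19 reads gave a ratio of 1.84 for non-RGC over RGC (interval 1.01 to 3.43), for counting error only. Both comparisons share the mutant RGC libraries, so the lower sums in those libraries enter both. Members with numbers 9 to 13 held 16 non-RGC and 7 RGC reads (ratio 2.49, interval 0.971 to 7.17), members 5 to 8 held 12 and 8, and members 1 to 4 held 4 and 4. Without Hoxd8, which held 2 non-RGC and 5 RGC reads, the totals were 30 and 14 (ratio 2.34, interval 1.20 to 4.77). These intervals are not adjusted for the splits made.

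Again no single member passed the test: limma called 0 of 21 tested members, with 1 at an unadjusted p under 0.05, voom weights gave the same counts, and the authors' deposited table gave 0 calls with a lowest adjusted p of 0.982, where 6.47% of its genes with a p were called. Limma called 9.0% of the 25252 genes tested (2.24% higher and 6.76% lower) and 0.353% of the 5949 whose mean was no higher than that of the highest Hox gene. Hoxb8 had the lowest p, with a log2 difference of 1.41 (SE 0.44, limma adjusted p = 0.0912), and its 7 non-RGC reads against 1 RGC read gave a ratio of 7.64 (interval 0.981 to 344). It was the single tested member whose groups did not overlap, against 26.1% of all genes tested. The summed normalised count of 11 microglia and blood markers was 42.3 to 102 in the mutant non-RGC libraries, where Hoxb8 reads were more numerous, and 963 to 4733 in the mutant RGC libraries. Hoxd8 differed by -0.63 (SE 0.49, adjusted p = 0.546), Hoxd9 by 0.51 (SE 0.49, adjusted p = 0.654) and Hoxb9 by 0.20 (SE 0.54, adjusted p = 0.866). Hoxa7 and Hoxb4 had no read in mutant non-RGC libraries and 1 and 2 reads in mutant RGC libraries (limma adjusted p = 0.655 and 0.390).

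Reads fell on every cluster, with 0 to 7 reads of a cluster in a library. HoxD held 8, 9 and 12 reads in mutant non-RGC, mutant RGC and WT RGC libraries, and HoxB held 12, 6 and 10. HoxA held 6, 2 and 8 reads and HoxC 6, 2 and 2 in the same order. Within WT RGCs, libraries 1 and 2 held 5 and 6 of their reads in HoxD and 2 and 1 in HoxB, while library 3 held 1 in HoxD and 7 in HoxB. Mutant non-RGC library 2 likewise held 6 of its 12 reads in HoxB, and the other 2 libraries of that group held 3 each there. Hoxd8 alone gave 4, 6 and 0 of the HoxD reads of the WT RGC libraries. The counting intervals of the clusters overlapped in WT RGCs, and whether libraries differed in the cluster that held their reads was not tested.

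Retinal libraries also hold RNA of vessels and connective tissue, cells that elsewhere in the body can express Hox genes. The summed normalised count of 8 mesenchyme and pericyte markers was 538 to 6672 in mutant non-RGC, 607 to 9383 in mutant RGC and 533 to 16527 in WT RGC libraries, with Lum at 0 in 1 library. In library order, mutant non-RGC sums of 538, 6672 and 889 stood beside 13, 12 and 7 Hox reads, mutant RGC sums of 9383, 607 and 3802 beside 6, 6 and 7, and WT RGC sums of 5305, 16527 and 533 beside 10, 11 and 11. The Hox totals were nearly equal within both RGC groups, so their order cannot be set against that of the sums there. In mutant non-RGC libraries the highest total, 13 reads, stood beside the lowest sum, and the counting intervals of these libraries overlapped. In the same library order, Hoxd8 had 0, 1 and 1 reads in mutant non-RGC, 1, 3 and 1 in mutant RGC and 4, 6 and 0 in WT RGC libraries, and the HoxD cluster had 3, 3 and 2, then 4, 3 and 2, then 5, 6 and 1 reads. In WT RGC libraries Hoxd8, which held 10 of the 12 HoxD reads there, followed the order of the mesenchyme sums, and HoxD did so with it. In mutant RGC libraries Hoxd8 was highest, at 3 reads, beside the lowest sum of 607. In mutant non-RGC libraries it had 0 reads beside the lowest sum and 1 read beside each of the others. Among 8 endothelial markers, Kdr held 75.2% to 93.1% of the summed level in every library. The other 7 summed to 506, 767 and 453 in mutant non-RGC, 1885, 511 and 650 in mutant RGC and 347, 826 and 591 in WT RGC libraries. Of these sums Cldn5 alone gave 375, 487 and 331, then 480, 385 and 392, then 135, 177 and 420. The sums thus rested largely on 1 gene in most libraries. Limma called 0 of the 8 between mutant non-RGC and mutant RGC, with 7 fitted below 0. Of all 25252 genes tested there, 9.0% were called and 12436 were fitted below 0. Between mutant and WT RGCs it called Kdr alone, as higher, where 12.2% of all genes were called. The sum of the 11 microglia and blood markers was 1783 to 2519 in WT RGC libraries, and Aif1, P2ry12 and Tyrobp of that list were at 0 in 1 or 2 libraries. The part of these cells in the Hox reads was not tested beyond these values.

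Most genes beside the clusters had many reads. Of the 3 nearest protein-coding genes on each side of each cluster, 22 of 24 were matched in the tables, with a median of 4684 reads over the 9 libraries, and 16 of them each held more reads than all Hox genes together. On chromosome 2, the HoxD members span 74668225 to 74765142; Mtx2, a gene of mitochondrial import 60.7 kb beyond the Hoxd1 end, had 1489, 1571 and 1693 reads in mutant non-RGC, mutant RGC and WT RGC libraries. On the other side, 6.71 kb from Hoxd13, the homeobox gene Evx2 had no read. HoxA (chromosome 6, 52155367 to 52260880) had the same arrangement: Evx1 beside Hoxa13 had no read, and Skap2, an adaptor protein gene 143 kb from the other end, had 316, 410 and 315 reads in the same order of groups. Both Evx genes are themselves Polycomb targets.

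HoxC (chromosome 15, 102921131 to 103036856) lay between Calcoco1, with 3926, 3955 and 3666 reads in mutant non-RGC, mutant RGC and WT RGC libraries, and the DNA repair gene Smug1, with 2004, 1849 and 1430 reads. HoxB (chromosome 11, 96194316 to 96368254) was the exception, since its nearest neighbours also held few reads: Ttll6 had 2, 3 and 1 reads and Skap1 4, 10 and 13. Beyond them, the mitochondrial ATP synthase gene Atp5g1 had 4407 reads in all and Cbx1 15010. Apart from Evx1 and Evx2, 1 matched neighbour, Atf7, was listed at 0. Calcoco2 had 1 read. Both overlap another RefSeq gene, as do Evx1, Ttll6 and Skap1, with 0, 6 and 27 reads. Cbx1, Snx10, Hibadh and Mtx2, with 15010, 6887, 5604 and 4753 reads, also overlap another, and Evx2 overlaps none. Whether overlap lowered any of these counts was not tested. Of the 19 neighbours tested in each comparison, limma called 0 in mutant against WT RGCs, with 6 at an unadjusted p under 0.05, and 0 in mutant non-RGC against mutant RGC, with 2. Voom weights also called 0 in each comparison, with 5 and 2 at an unadjusted p under 0.05. Of all genes tested, limma called 12.2% between genotypes and 9.0% between fractions, with 7525 of 25333 and 5444 of 25252 at an unadjusted p under 0.05.

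**Figure D4:**
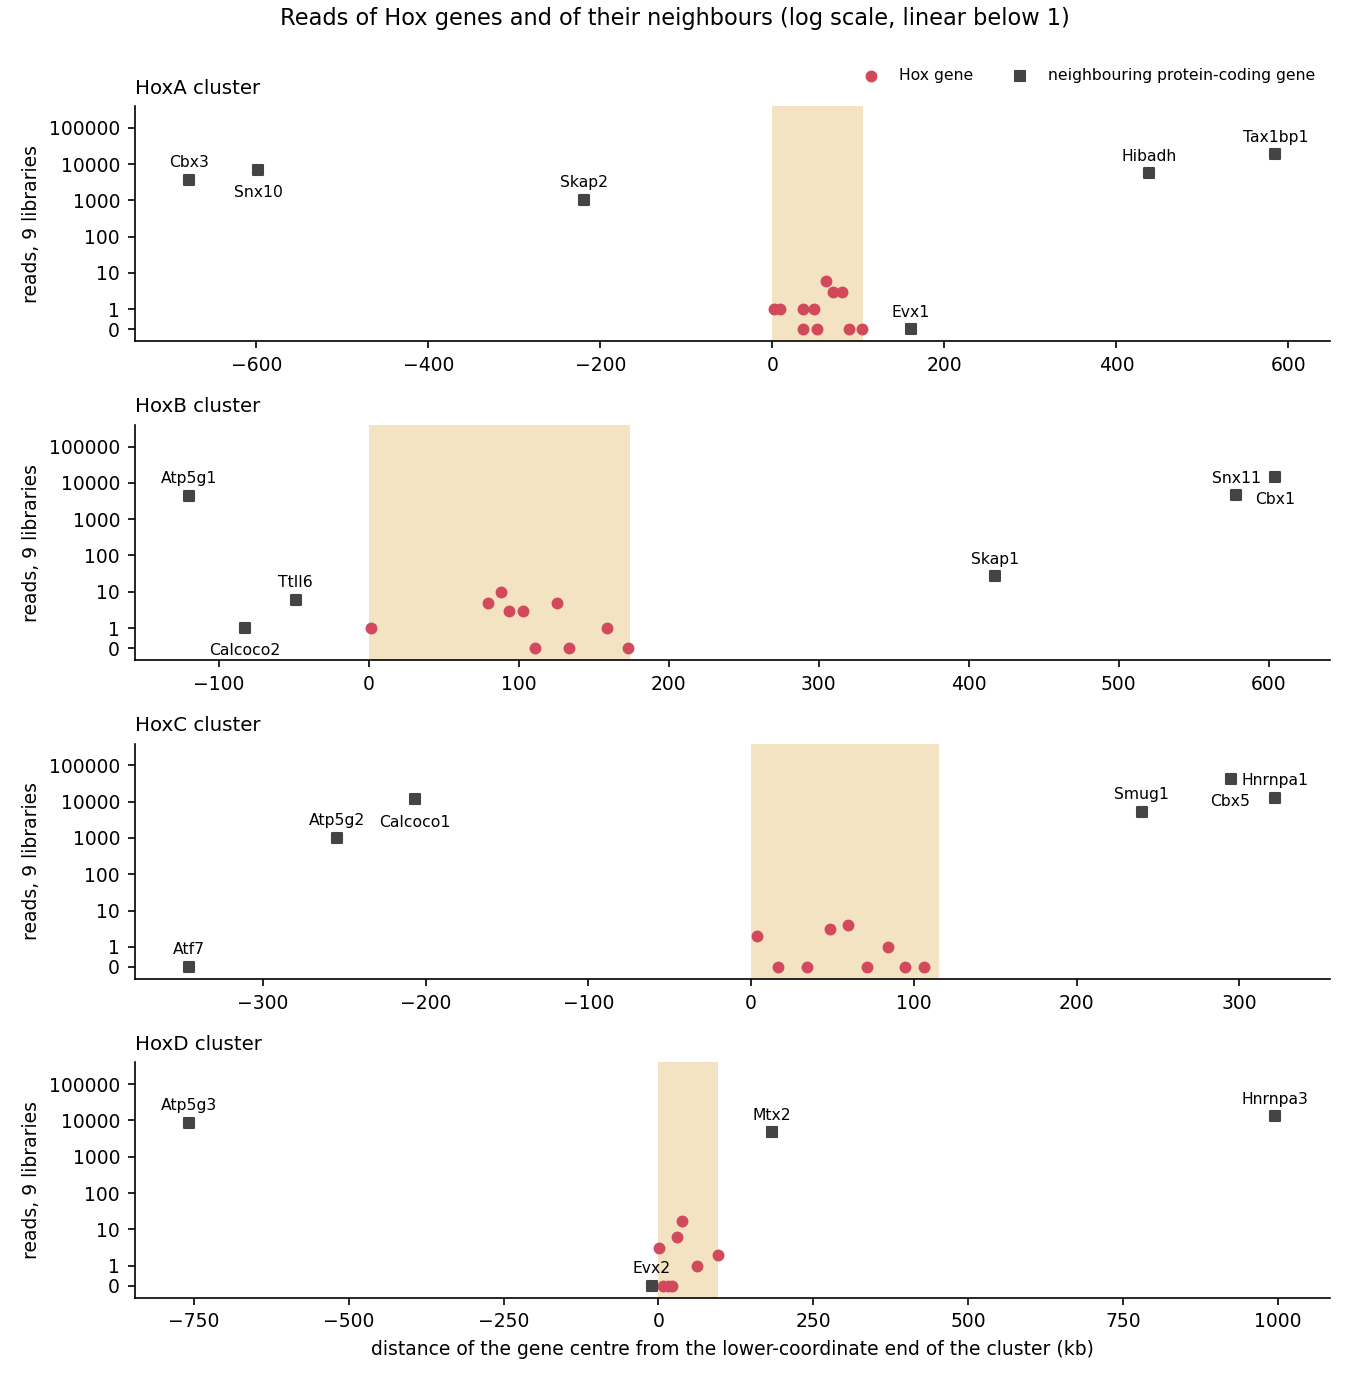
Each panel gives a cluster (shaded span) with its Hox genes (circles) and matched protein-coding neighbours (squares); the x axis is the distance of the gene centre from the lower-coordinate end of the cluster in kb and the y axis the reads over all 9 libraries on a log scale that is linear below 1. Hox genes lie between 0 and 17 reads, and 16 neighbours lie between 1004 and 41902, with Evx1, Evx2 and Atf7 at 0.

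Other members of the homeobox families related to Hox, and the non-coding genes within the clusters, also held few reads or none. Of 8 Evx and ParaHox genes (Evx1, Evx2, Gsx1, Gsx2, Pdx1, Cdx1, Cdx2 and Cdx4), 3 had reads, 15 in all. Gsx1, a forebrain and spinal cord gene of interneuron progenitors, had 2, 2 and 1 reads in mutant non-RGC, 1, 1 and 1 in mutant RGC and 1, 0 and 0 in WT RGC libraries. Its relative Gsx2 had 0, 0 and 0, then 1, 1 and 2, and 1, 0 and 0 reads in the same order of groups. For Gsx2, non-RGC libraries lay below RGC libraries of the mutant, with a log2 difference of -1.18 (SE 0.37) that was not called (limma adjusted p = 0.0883). Gsx1 went the other way, also without overlap after scaling (log2 difference 0.42, SE 0.40, limma adjusted p = 0.638). Between these fractions, groups did not overlap in 26.1% of all genes tested. Cdx1, of the gut, had 1 read. Of 9 listed mouse non-coding genes of the clusters, 2 had a single read each, Hoxa11os and Hoxb3os. The others were Hotair and the microRNA genes Mir10a, Mir10b, Mir196a-1, Mir196a-2, Mir196b and Mir615. A further 20 long non-coding entries of the Hox clusters with human names held 1 read in all. Poly(A) libraries do not measure mature microRNAs.

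The cofactors of Hox proteins were present in every library. Pbx, Meis and Pknox proteins are homeodomain factors of the TALE class that bind DNA together with Hox proteins and also act without them; Meis1 and Meis2 are known for roles in retinal progenitors. In mutant against WT RGCs, 3 of 9 cofactor genes were higher (Pknox1, Meis2 and Meis1), 1 was lower (Meis3) and 5 did not pass the test. Limma called 6.45% of all genes higher and 5.78% lower there, a background that includes many genes with few reads. Refitted on genes with a mean of at least 10, which all 9 cofactor genes have, limma called 3971 of 15277 in either direction. The median log2 difference of the 9 genes was 0.07, against 0.00 over all genes tested. Pknox1 had 1195, 969.7 and 953 normalised counts in mutant RGC and 711, 639.9 and 718 in WT RGC libraries (log2 difference 0.62, SE 0.10, limma adjusted p = 0.0249). Meis2 had 3099, 2573 and 2619 in mutant RGC and 2015, 2090.2 and 2228 in WT RGC libraries (log2 difference 0.42, SE 0.08, adjusted p = 0.0289). For both genes every mutant library was above every WT library. The RGC groups did not overlap in 5 of the 9 cofactor genes, against 34.7% of all genes tested.

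Meis1 had 2082, 1900.2 and 1898 normalised counts in mutant RGC and 1671, 1645 and 1710.5 in WT RGC libraries (log2 difference 0.26, SE 0.07, limma adjusted p = 0.0455), again without overlap. Meis3 went the other way, with 692, 884 and 903 in mutant RGC and 1278, 1164 and 1304 in WT RGC libraries (log2 difference -0.57, SE 0.13, adjusted p = 0.0343). Each of these 4 calls was lost on leaving out any 1 of the mutant RGC libraries or WT RGC library 1 or 2, with adjusted p-values between 0.0521 and 0.175, and the call of Meis1 was also lost with upper-quartile scaling. The calls moved beside the markers given above: the summed level of ganglion cell markers was lower and that of dividing cell markers higher in every mutant RGC library than in every WT RGC library, and their part in the cofactor levels was not tested.

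**Figure D5:**
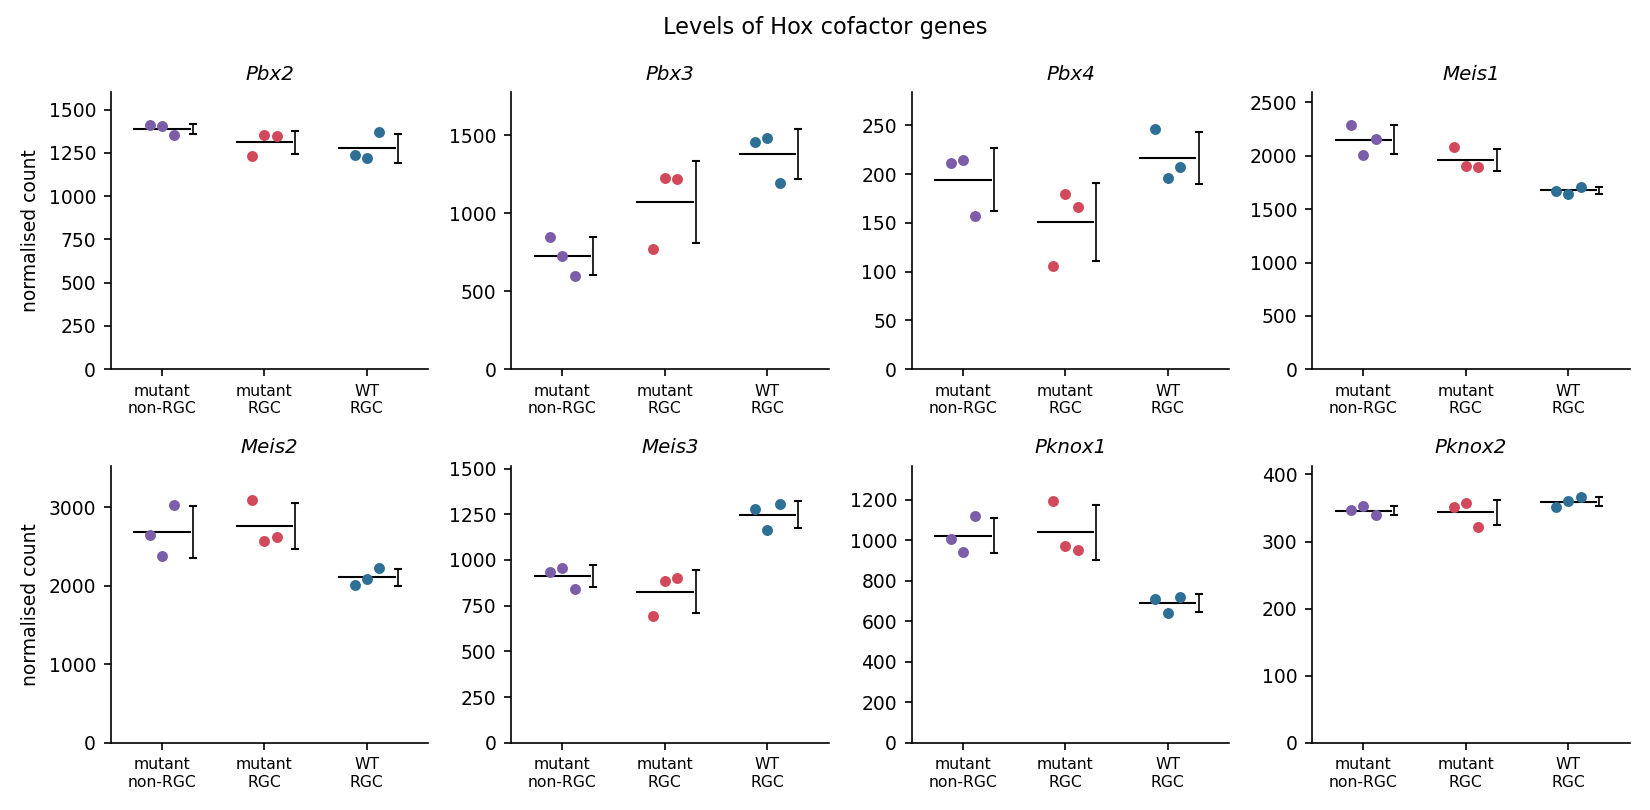
The panels show 8 cofactor genes, with normalised counts scaled over all 9 libraries on the y axis and the groups mutant non-RGC, mutant RGC and WT RGC on the x axis; points are libraries, horizontal lines group means and vertical bars the SD (n = 3). Pknox1, Meis1 and Meis2 are higher and Meis3 is lower in mutant than in WT RGC libraries.

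The regulators that set Hox chromatin had reads in every library while the clusters stayed near 0. The 7 such genes were Ezh2, Ehmt2, Eed, Suz12, Kmt2a, Men1 and Kdm6b. In mutant against WT RGCs, 2 were higher (Ezh2 and Suz12), 1 was lower (Ehmt2) and 4 did not pass the test. Limma called 6.45% of all genes higher and 5.78% lower there. Refitted on genes with a mean of at least 10, which all 7 have, it called 3971 of 15277 in either direction. Of the 6 markers of dividing cells, 5 were also called higher there, and their part in these levels was not tested. Suz12 had 2152, 2010.3 and 2008 normalised counts in mutant RGC and 1282, 1345 and 1634 in WT RGC libraries (log2 difference 0.58, limma adjusted p = 0.0252). Ehmt2, which encodes G9a, had 2364, 2799 and 2962 in mutant RGC and 3743, 3603 and 3857 in WT RGC libraries (log2 difference -0.43, SE 0.10, adjusted p = 0.0379). The call of Ehmt2 was lost on leaving out any 1 of the 6 libraries (adjusted p = 0.0549 to 0.166) and that of Suz12 on leaving out any 1 of the mutant RGC libraries or WT RGC library 1 or 2 (adjusted p = 0.0587 to 0.145). Kmt2a, the methyltransferase that keeps Hox genes active, and Kdm6b, a demethylase that removes the Polycomb mark, had log2 differences of -0.08 and -0.02 (adjusted p = 0.674 and 0.936). Between mutant non-RGC and mutant RGC, Ezh2 was the single gene of the 7 called (log2 difference 0.25, SE 0.06, limma adjusted p = 0.0380). Of all genes, 2.24% were called higher there, and 2592 of 15179 genes with a mean of at least 10 were called in either direction. The call of Ezh2 was lost on leaving out any 1 of the non-RGC libraries or mutant RGC library 2 or 3 (limma adjusted p = 0.0632 to 0.172).

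Counts of calls over all genes, which give the backgrounds above, rested on few libraries. In mutant against WT RGCs, 3098 genes were called; without mutant RGC library 1, 2 or 3 the number was 304, 5 and 9, and without WT RGC library 1, 2 or 3 it was 8, 9 and 5683. In mutant non-RGC against mutant RGC, 2273 genes were called; without non-RGC library 1, 2 or 3 the number was 350, 1032 and 1402, and without mutant RGC library 1, 2 or 3 it was 2890, 224 and 55. The number of Hox genes called was 0 in every one of these fits.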

How the data were processed

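The submitters' processing notes name STAR 2.3, DESeq, FastQC and featureCounts, with build mm10; strand setting and annotation are not given in the sources used here. The names of the deposited tables mark alignments as sorted, primary and without duplicates, and removing duplicates of single reads lowers counts of abundant genes more than those of genes with a few reads. The 2 deposited tables give, per the file headers, means of size-factor-normalised counts of each group, their ratio, its log2 value, and the authors' p-value and adjusted p-value. No table gives libraries or total counts. No value of the authors' ratio or log2 column is reported.

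Each library's whole reads were solved for from the deposited means, each the sum of 3 counts divided by 3 times a size factor. A solution within 1e-09 of whole reads, with the next best at least 10 times further off, was found for all but 5 genes in WT RGCs (Ank2, Reln, Adcy1, Map1b and Dync1h1, left out) and all but 1 in mutant RGCs in each table. Mutant RGC counts recovered from both tables were identical in 23953 of 23953 genes, which also showed which condition the tables share. Libraries were numbered within a group by falling size factor and carry no sample numbers.

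Genes with a read in the 6 libraries of a comparison were fitted with limma 3.58.1 (R 4.3.3, variance trend) on log2(normalised count + 1), with Benjamini-Hochberg adjustment over all genes and calls at adjusted p under 0.05. Levels and marker sums set side by side over the 9 libraries were scaled by median-of-ratios factors of all 9. RPM is reads per 1e+06 assigned reads. Poisson and conditional binomial intervals (scipy 1.17.1) are exact and cover counting error only. The test was checked on simulated data with changes set only in genes with a mean above 10. The highest Hox mean was 2.49 between genotypes and 1.36 between fractions, so that check does not cover the Hox genes. Hox genes with at least 5 reads are named with every library and the others with their reads; cofactor genes are named where called, and the nearest neighbour on each side of a cluster is named. The members and lists were chosen with earlier results of these data known. Alternatives were a mean of at least 1 or 10, a pseudocount of 0.5, scaling by total count or upper quartile, voom weights, and leaving out each library. Coordinates and promoter windows are those of RefSeq on GRCm38.p6 (mm10). Some genes of these lists are not reported here by name.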

Additional observations from a re-analysis of the deposited data

How the results depend on the processing

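The number of Hox genes called was 0 in both comparisons under every alternative run, with a lowest adjusted p between 0.0715 and 0.296 for mutant against WT RGCs and between 0.0765 and 0.279 for mutant non-RGC against mutant RGC. With a mean of at least 10 no Hox gene was left to test. No paired analysis was possible because the recovered libraries carry no replicate numbers. Most members rest on 0 to 3 reads, which limits the precision of every single-gene value. The number of Hox genes with reads was 5, 2 and 5 in mutant non-RGC, mutant RGC and WT RGC when a read in at least 2 of 3 libraries was asked for, 3, 1 and 3 with at least 3 reads, and 12 to 15, 8 to 10 and 8 to 12 when a library was left out. The ratio of summed Hox normalised counts stayed between 0.510 and 0.577 (mutant over WT RGC) and between 1.57 and 2.02 (mutant non-RGC over mutant RGC) when a library was left out. Calls over all genes numbered 5 to 5683 and 55 to 2890 when a library was left out.

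For mutant against WT RGCs, the log2 difference turned sign with total-count scaling for Pknox2 (0.013) and Kdm6b (0.029) and with upper-quartile scaling for Calcoco1 (-0.011). When a library was left out it ranged from -0.56 to 0.33 for Hoxb8, -0.56 to 0.32 for Hoxb9, -1.27 to 0.15 for Hoxd8, -0.33 to 0.50 for Hoxd9, -0.075 to 0.0073 for Pknox2, -0.16 to 0.038 for Kmt2a, -0.13 to 0.051 for Kdm6b, -0.044 to 0.36 for Skap2 and -0.046 to 0.060 for Calcoco1.

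For mutant non-RGC against mutant RGC it turned sign with total-count scaling for Meis2 (0.020), Pknox1 (0.047), Kdm6b (0.0091) and Mtx2 (0.049) and with upper-quartile scaling for Pknox1 (0.0086) and Mtx2 (0.010). When a library was left out it ranged from -0.33 to 0.53 for Hoxb9, -0.13 to 0.037 for Meis2, -0.081 to 0.073 for Pknox1, -0.029 to 0.048 for Pknox2, -0.014 to 0.098 for Suz12, -0.13 to 0.057 for Kdm6b, -0.40 to 0.0096 for Skap2, -0.84 to 0.050 for Ttll6 and -0.11 to 0.035 for Mtx2. None of these values was called in the reported fit, and the cause of the changes was not tested.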
